A study of Mus musculus with 5 samples.

Results

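The genes described here are the potassium channel genes of embryonic sympathetic neurons, taken as the protein-coding genes whose mouse symbol begins with *Kcn*. Of 66 such genes among the 20224 genes of the count table, 61 had 10 or more raw counts summed over the 5 libraries and were kept as members. The rule used no difference between genotypes. *Kcnj3* with 10 summed counts and *Kcnc2* with 11 lay just inside the limit, whereas *Kcnj13* and *Kcnk4* with 9 each, *Kcnf1* with 7, *Kcnk5* with 5, and *Kcnk18* with 1 lay just outside it. Another 28 annotated protein-coding *Kcn* genes, among them *Kcna1*, *Kcnj2*, *Kcnj5*, and *Kcnj8*, were not in the count table and so could not be analysed.

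Each library was made from 100 neurons sorted from the stellate ganglia and thoracic sympathetic chain at E14.5 of non-diabetic pregnancies. Cells were positive for tdTomato, which *Isl1-Cre* switches on from the *Ai14* allele, and for eGFP under the peripherin promoter. The 2 control libraries (replicates 5 and 6) carried *Isl1-Cre*, *Ai14*, *Prph-eGFP*, and *Hif1a* loxP/+, and the 3 *Hif1aCKO* libraries (replicates 3, 4, and 5) carried the same alleles with *Hif1a* loxP/loxP. The controls therefore also bore Cre and a single floxed *Hif1a* allele, and *Isl1-Cre* acts in other *Isl1* lineages of the embryo besides sympathetic neurons.

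Potassium channels let potassium ions leave the cell and so set the resting potential, the shape of the action potential, and the rate of firing. Voltage-gated channels open on depolarization, calcium-activated channels open when calcium enters, inward rectifiers and two-pore leak channels act around the resting potential, and accessory subunits change the gating or traffic of the pore proteins. Sympathetic neurons are the cells in which the M-current, a slow potassium current carried by *Kcnq* channels and closed by muscarinic receptors, was first described. HIF-1 is an oxygen-regulated transcription factor, and some two-pore channels contribute to oxygen-sensitive currents in chemoreceptor cells, so the comparison asks which channel genes differ when *Hif1a* is deleted in these neurons.

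Total counts per library were 8254211 to 9700887, of which the 61 members took 5671 to 7646. *Hif1a* itself is no check of the genotype, because the gene count does not resolve the floxed exon, and its normalized count was 1835 ± 355 in controls and 2213 ± 499 in *Hif1aCKO* (SD, 2 and 3 libraries). The sympathetic identity held in all 5 libraries, with *Th*, *Dbh*, and *Gata3* at 1515 normalized counts or more in each, but its genes were on balance lower in *Hif1aCKO*. Of 10 listed sympathetic genes 3 were higher and 7 lower, 1 and 5 of them with an unadjusted p under 0.05 in edgeR (3.83% of all genes higher and 3.85% lower), and their summed normalized counts were 81640 and 99941 in controls and 71989 to 75018 in *Hif1aCKO*. *Hif1aCKO* replicate 3 stood apart by glial genes, with 993 normalized counts of *Fabp7*, 54.7 of *Cdh19*, 53.6 of *Erbb3*, and 8.58 of *Sox10*, whereas the other libraries held at most 8.76, 0, 2.08, and 0.973 of these genes. The 3 listed chromaffin genes did not move together. *Cartpt* had 6947 ± 995 normalized counts in controls and 14247 ± 3414 in *Hif1aCKO* (SD, unadjusted p under 0.05), *Pnmt* had 40.1 ± 15.5 and 10.6 ± 7.62, and *Chga* had 2692 ± 326 and 2706 ± 337. Of the 5 listed motor neuron genes, *Slc18a3* had 725 ± 161 and 358 ± 144 (SD, unadjusted p under 0.05) and *Chat* had 51.7 ± 3.54 and 25.8 ± 22.6. *Isl2* of the same list had 10 summed counts, and *Lhx3* and *Mnx1* were not in the count table. The endothelial list summed to at most 38.0 normalized counts in any library and the mesenchymal list to at most 13.6. The smooth muscle list summed to 21.3 and 53.1 in controls and 27.9 to 85.9 in *Hif1aCKO*. The paper had named *Mki67*, *Cdc20*, *Ccnb1*, *Cenpe*, and *Cenpf* as upregulated in these same libraries, so the direction of these listed genes was known beforehand. All 8 listed cell cycle genes were higher in *Hif1aCKO*, 7 of them with an unadjusted p under 0.05 in edgeR, and their summed normalized counts were 14396 to 15580 in controls and 21411 to 28281 in *Hif1aCKO*. Their part in the differences below was not tested. In bulk samples, fewer cells that express a gene and less RNA of it per cell cannot be told apart.

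Because HIF-1 binds a short core, ACGTG or GCGTG, the 250 bases before the most upstream RefSeq start of each member (build GRCm38.p6) were read for these letters on both strands. Promoters of 3 members that appear in the comparison below are printed, written 5′ to 3′ along the strand of the gene, with each core on either strand in capitals. *Kcna6* (chr6:126740675-126740924, minus strand) held 3 cores, *Kcnd3* (chr3:105451640-105451889, plus strand) held 7, and *Kcnq5* (chr1:21962651-21962900, minus strand) held none.
Kcna6: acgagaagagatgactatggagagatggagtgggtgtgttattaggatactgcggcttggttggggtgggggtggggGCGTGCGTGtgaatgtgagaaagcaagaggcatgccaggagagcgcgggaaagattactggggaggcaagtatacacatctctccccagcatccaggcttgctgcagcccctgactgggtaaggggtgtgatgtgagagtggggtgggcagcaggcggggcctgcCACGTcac
Kcnd3: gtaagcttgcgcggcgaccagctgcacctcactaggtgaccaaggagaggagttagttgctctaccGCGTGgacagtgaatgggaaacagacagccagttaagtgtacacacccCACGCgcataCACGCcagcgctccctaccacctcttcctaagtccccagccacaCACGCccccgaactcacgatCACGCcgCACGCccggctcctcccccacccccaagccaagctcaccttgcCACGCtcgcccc
Kcnq5: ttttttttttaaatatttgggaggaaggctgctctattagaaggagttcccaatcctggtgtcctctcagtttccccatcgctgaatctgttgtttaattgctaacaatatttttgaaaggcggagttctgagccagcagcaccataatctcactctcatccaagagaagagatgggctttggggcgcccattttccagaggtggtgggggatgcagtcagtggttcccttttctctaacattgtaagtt
Of the 61 members, 41 had a promoter in the table used, and 15 of these (36.6%) held at least 1 core. The share was 38.6% over all 27025 promoters and 57.8% over the 9632 promoters of protein-coding genes tested here, with a median GC content of 61.6% for members and 60.4% for those genes. The first pair of cores in *Kcna6* shares a base. A match of 5 letters is common in promoters of this length and is a description of the sequence, not of binding.

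Levels were compared between genes as counts divided by the union of annotated exons and scaled to the same total over all genes in every library (TPM, a relative unit), called the level per length here. A small number of genes held most of the potassium channel RNA. *Kcnmb2*, an accessory β subunit of the large-conductance calcium-activated (BK) channel, took 24.0% of the summed level, and the first 5 genes, *Kcnmb2*, *Kcnip1*, *Kcnk3*, *Kcnk9*, and *Kcna5*, took 52.1%. The first 10, among them also *Kcnk2*, *Kcnd2*, *Kcnh8*, and *Kcnk10*, took 69.8%. The *Kcnmb* subfamily took 25.0% per length and 13.8% without division by length. A count was present in every library for 42 members and 10 or more counts for 32. Of the 61, 39 had a mean level of 1 TPM or more and 17 had 5 or more.

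**Figure D1:**
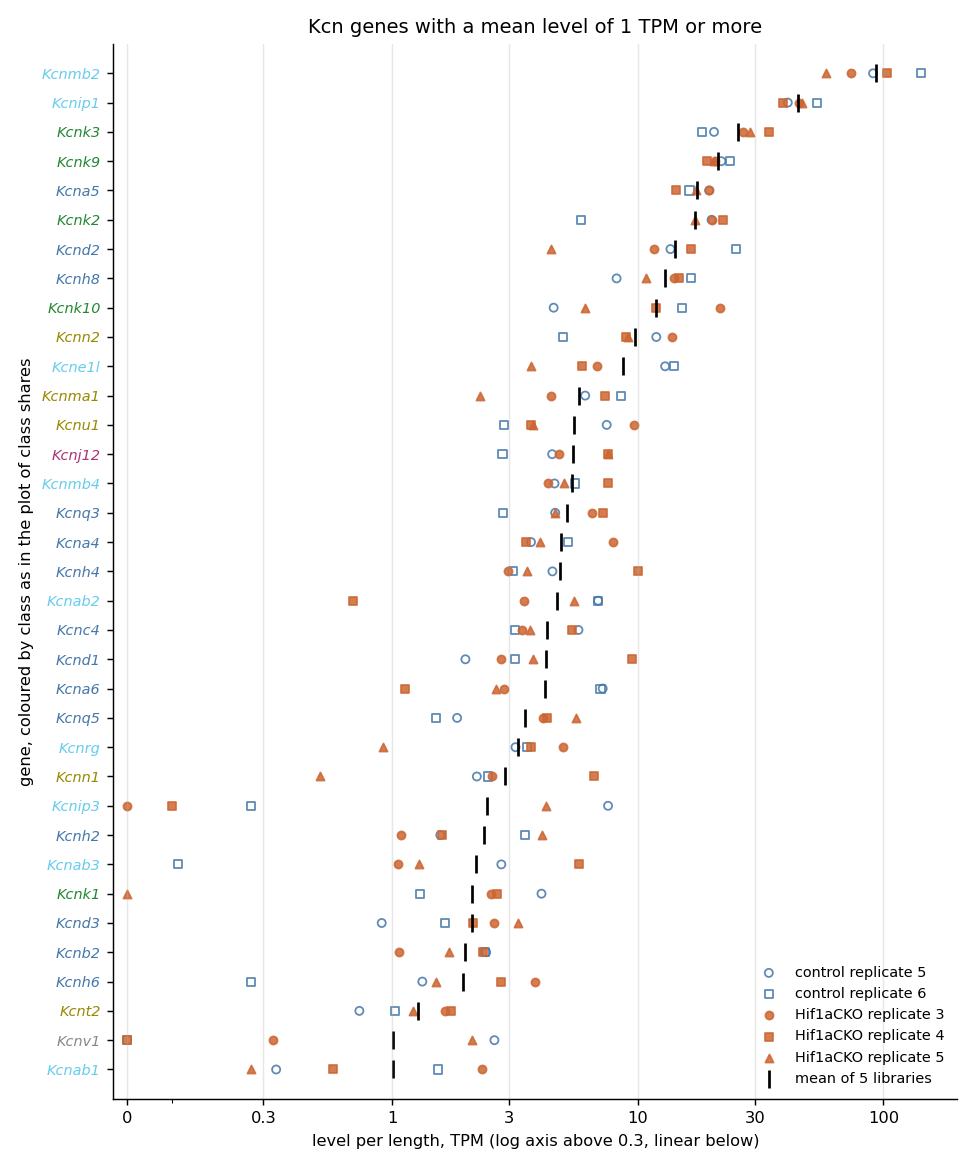
Level per length of 35 members with a mean of at least 1 TPM, with a point for each library (open, control; filled, *Hif1aCKO*) and a bar at the mean of the 5 libraries, on a log axis above 0.3. *Kcnmb2* lies at 58.6 to 142 TPM and *Kcnip1* at 39.0 to 53.7, whereas genes below about 5 TPM often spread over several fold between libraries.

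*Kcnmb2* had a level of 90.7 and 142 TPM in the controls, in the order of replicates 5 and 6, against 73.6, 103, and 58.6 for *Hif1aCKO* (replicates 3, 4, and 5, the order kept throughout). *Kcnip1*, a calcium-binding subunit of A-type *Kcnd* channels, followed at 45.1 TPM on average. *Kcnip1* ranged from 39.0 to 53.7, so per length it lay below *Kcnmb2* in all 5 libraries. In normalized counts it lay above *Kcnmb2* in *Hif1aCKO* replicates 3 (801 against 654) and 5 (837 against 533). The leak channels *Kcnk3* and *Kcnk9*, the acid-sensitive TASK channels, had mean levels of 25.7 and 21.1 TPM, and their order per length differed between the genotypes. Without division by length the order was the same in all 5 libraries, with *Kcnk9* at 665 to 838 normalized counts and *Kcnk3* at 210 to 386. The level of *Kcnk3* divided by that of *Kcnk9* was 0.934 and 0.773 in controls and 1.30, 1.80, and 1.40 in *Hif1aCKO*. *Kcna5* at 17.4 TPM and the mechanosensitive leak channel *Kcnk2* at 17.0 came next and overlapped, with *Kcnk2* between 5.88 and 22.3.

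By class, accessory subunits took 42.6% of the summed level on average, voltage-gated pores 27.7%, two-pore leak channels 20.3%, calcium- or sodium-activated pores 6.85%, inward rectifiers 1.93%, and silent subunits, which act only together with other voltage-gated subunits, 0.631%. These shares depend on the division by length. Without it, voltage-gated pores took the largest share with 33.6%, accessory subunits 29.7%, and two-pore channels 25.1%. The accessory share per length was 44.9% and 51.4% in the controls and 37.6%, 39.3%, and 39.7% in *Hif1aCKO*. The share of two-pore channels was 19.0% and 14.49% in the controls and 23.9%, 21.5%, and 22.8% in *Hif1aCKO*. Neither pair of groups overlapped. The voltage-gated share was 25.7% and 27.4% in the controls and 27.6%, 28.7%, and 28.8% in *Hif1aCKO*, so its groups were narrowly apart too. An exact permutation test of 2 libraries against 3 cannot give a p below 0.1, so the shares are given as values.

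**Figure D2:**
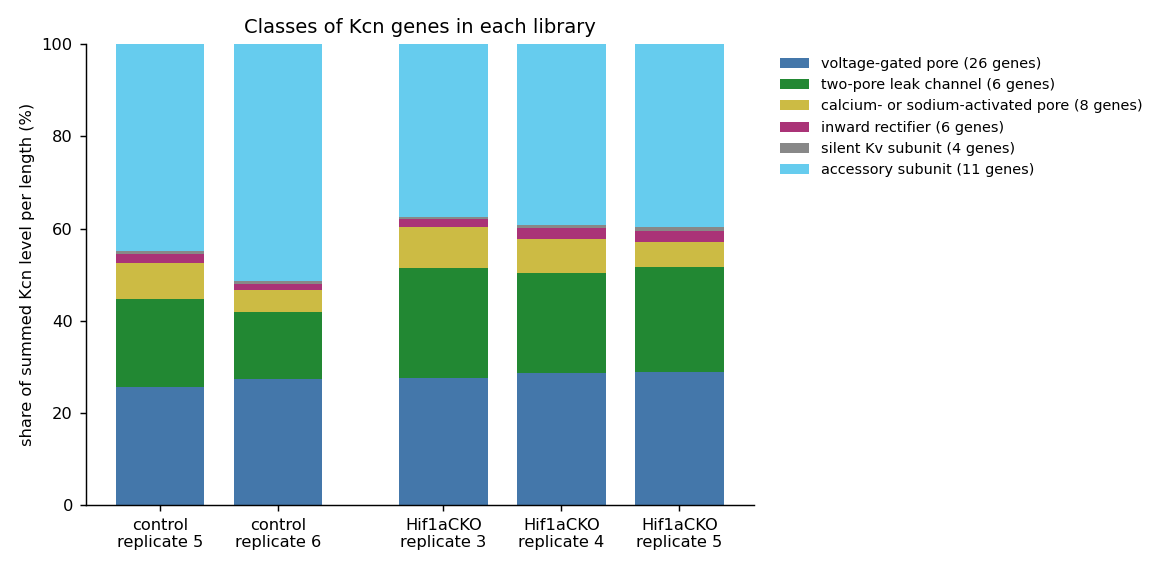
Share of the summed level per length that each class of *Kcn* genes took in each library, as stacked bars that add to 100%. The accessory band spans 44.9% and 51.4% in the controls and 37.6% to 39.7% in *Hif1aCKO*. The voltage-gated band spans 25.7% and 27.4% in the controls and 27.6% to 28.8% in *Hif1aCKO*, so its groups are narrowly apart.

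The class shares are not independent, since a lower *Kcnmb2* raises all other shares. With *Kcnmb2* left out, a choice made after the values were seen, the share of two-pore channels was 25.0% and 21.3% in controls and 29.6%, 28.5%, and 27.9% in *Hif1aCKO*. The summed level of the other accessory genes was 79.1 and 86.0 TPM in controls and 70.2, 63.4, and 68.4 in *Hif1aCKO*. Both sets of groups thus stayed apart without *Kcnmb2*. The summed level of two-pore channels was 72.0 and 64.3 TPM in controls and 91.5, 91.2, and 72.8 in *Hif1aCKO*, where the lowest *Hif1aCKO* library lay close to the higher control. The summed level of all 61 members was 320 to 444 TPM, and its groups overlapped. The rank order of the members was shared by the libraries as a whole, with Spearman correlations of the levels over 61 genes from 0.736 to 0.850, and pairs within a genotype (0.756 to 0.838) lay inside that range.

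The comparison of genotypes was fitted over all 15032 genes tested with edgeR's quasi-likelihood test, and 47 of the 61 members passed its filter on low counts. The 14 that did not were *Kcna3*, *Kcnc2*, *Kcnh1*, *Kcnip2*, *Kcnip4*, *Kcnj3*, *Kcnj6*, *Kcnj9*, *Kcnj14*, *Kcnk12*, *Kcnn4*, *Kcnq1*, *Kcns2*, and *Kcnv2*, with 10 to 36 summed counts each. No member was called at an adjusted p under 0.05, a log2 fold change past 0.3, and a mean normalized count of 50 or more. No gene of the whole table was called either (0%). The smallest adjusted p of a member was 0.598. With DESeq2, 60 of 20175 genes with a count were called and none of the 61 members, with a smallest adjusted p of 0.220 for a member. At so low a share over all genes, the lack of a called member does not set the members apart. At an unadjusted p under 0.05, 2 members were higher in *Hif1aCKO* (*Kcnq5* and *Kcnk3*), or 4.26% of the 47, beside 3.83% of all genes. Also 2 members were lower (*Kcna6* and *Kcnh3*), 4.26% beside 3.85%. Both shares lay near the background. In edgeR these counts were 1 and 5 (higher and lower) of 46 tested members without *Hif1aCKO* replicate 4. They were 2 and 3 of 47 without *Hif1aCKO* replicate 3, and 2 and 2 of 45 without *Hif1aCKO* replicate 5. The shares over all genes in these fits were not computed, so the counts are not set against a background.

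All 3 *Hif1aCKO* libraries lay above both controls for 9 members (19.1%), where 12.9% of all genes did so, and below both controls for 7 members (14.9%), again beside 12.9% of all genes. The 9 included *Kcnq3*, *Kcnq5*, *Kcnd3*, *Kcnh6*, *Kcnk3*, *Kcnj12*, *Kcnn3*, and *Kcnt2*, and the 7 included *Kcna6*, *Kcnab2*, *Kcnb2*, *Kcne1l*, *Kcnh3*, and *Kcnk9*. The median log2 fold change of the 47 was -0.02, with 23 higher and 24 lower in *Hif1aCKO*, and that of all genes was 0.01. With fewer libraries, groups lay apart more often among all genes too. Without control replicate 5, 14 members (25.5%) lay above and 16 (29.1%) below, beside 25.2% and 25.5% of all genes. Without control replicate 6, 18 members (34.6%) lay above and 13 (25%) below, beside 23.6% and 24.3%. Without *Hif1aCKO* replicate 4, 9 members (19.6%) lay above and 11 (23.9%) below, beside 19.4% and 19.5%. Without *Hif1aCKO* replicate 3, the library with glial genes, 11 members (23.4%) lay above and 8 (17%) below, beside 22.2% and 22.3%, no member was called, and the smallest adjusted p of a member was 0.321. The values that follow describe single genes that did not pass the adjusted test. Log2 fold changes are *Hif1aCKO* over control with their standard errors, and normalized counts are counts scaled to the mean effective library size.

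**Figure D3:**
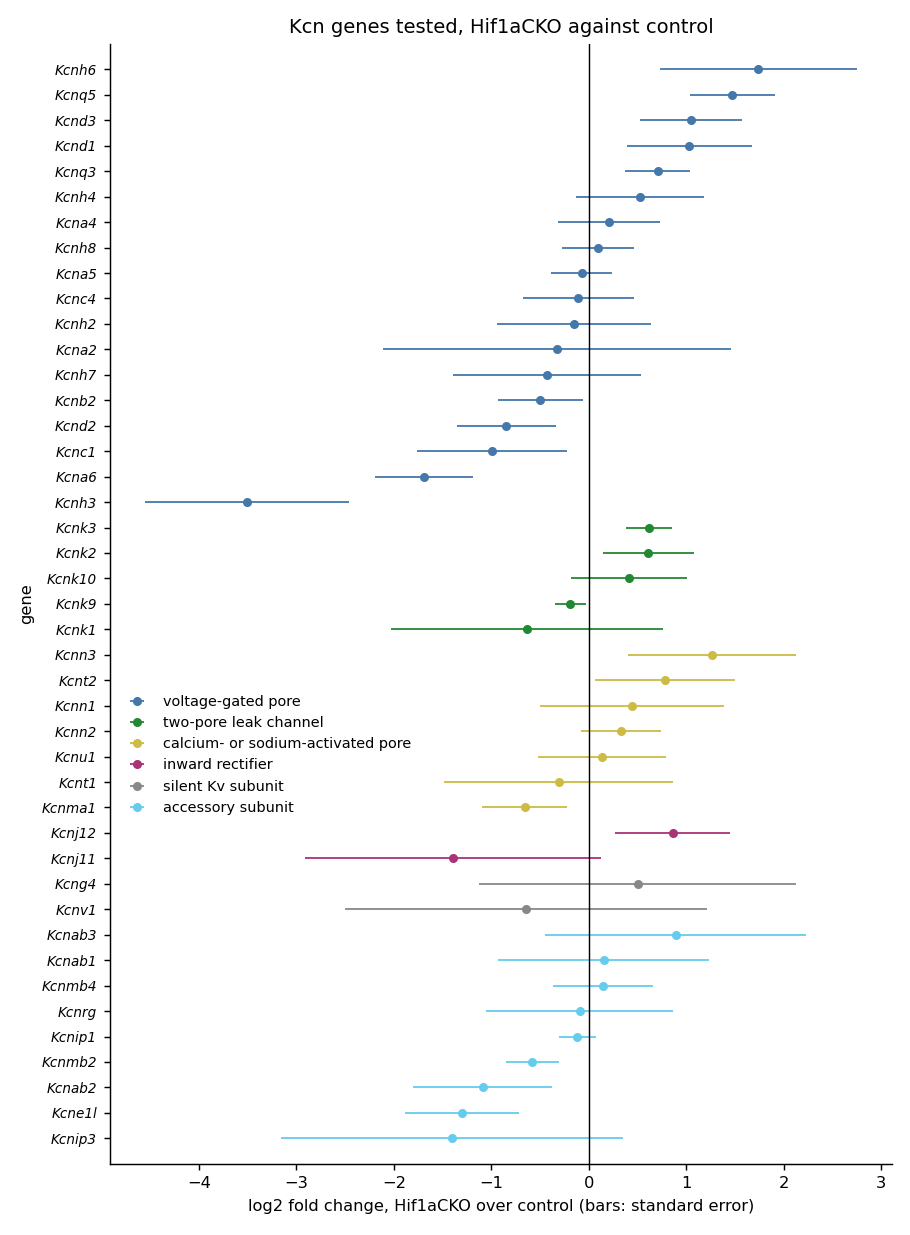
Log2 fold change of 43 tested members, *Hif1aCKO* over control, with bars of 1 standard error, grouped by class. Points lie on both sides of 0 in every class, from -3.50 for *Kcnh3* to 1.74 for *Kcnh6*, and the bars are longest for genes of few counts such as *Kcnv1* and *Kcna2*.

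The M-current genes *Kcnq3* and *Kcnq5* were each higher in all 3 *Hif1aCKO* libraries than in both controls, and neither passed the adjusted test. *Kcnq5* (chromosome 1, 21398403 to 21961942, minus strand) had 40.6 and 33.4 normalized counts in the controls, against 90.1, 92.9, and 125 for *Hif1aCKO*. Its log2 fold change was 1.47 ± 0.44 (edgeR, unadjusted p = 0.00944, adjusted p = 0.598). The lowest *Hif1aCKO* library was far above the higher control, and single omissions of a library gave fold changes of 1.30 to 1.62.

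*Kcnq3*, the more abundant of these genes at 5.15 TPM, had 195 and 120 normalized counts in controls and 271, 301, and 197 in *Hif1aCKO* (log2 fold change 0.70 ± 0.33), with 0.39 without control replicate 6 and 1.09 without control replicate 5. Control replicate 5 and *Hif1aCKO* replicate 5 were almost equal, so the groups of *Kcnq3* were barely apart. At 3.47 TPM, *Kcnq5* was the scarcer gene on average, and its groups were farther apart than those of *Kcnq3*. *Kcnq1*, the cardiac member of the family, had only 16 summed counts and was not tested. *Chrm1*, the muscarinic receptor that closes M-channels, had 17.3 ± 3.50 normalized counts in controls and 10.0 ± 4.03 in *Hif1aCKO* (SD), and *Gnaq*, the G protein α subunit behind it, had 1236 ± 86.1 and 1125 ± 64.2. Neither passed an unadjusted p of 0.05.

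**Figure D4:**
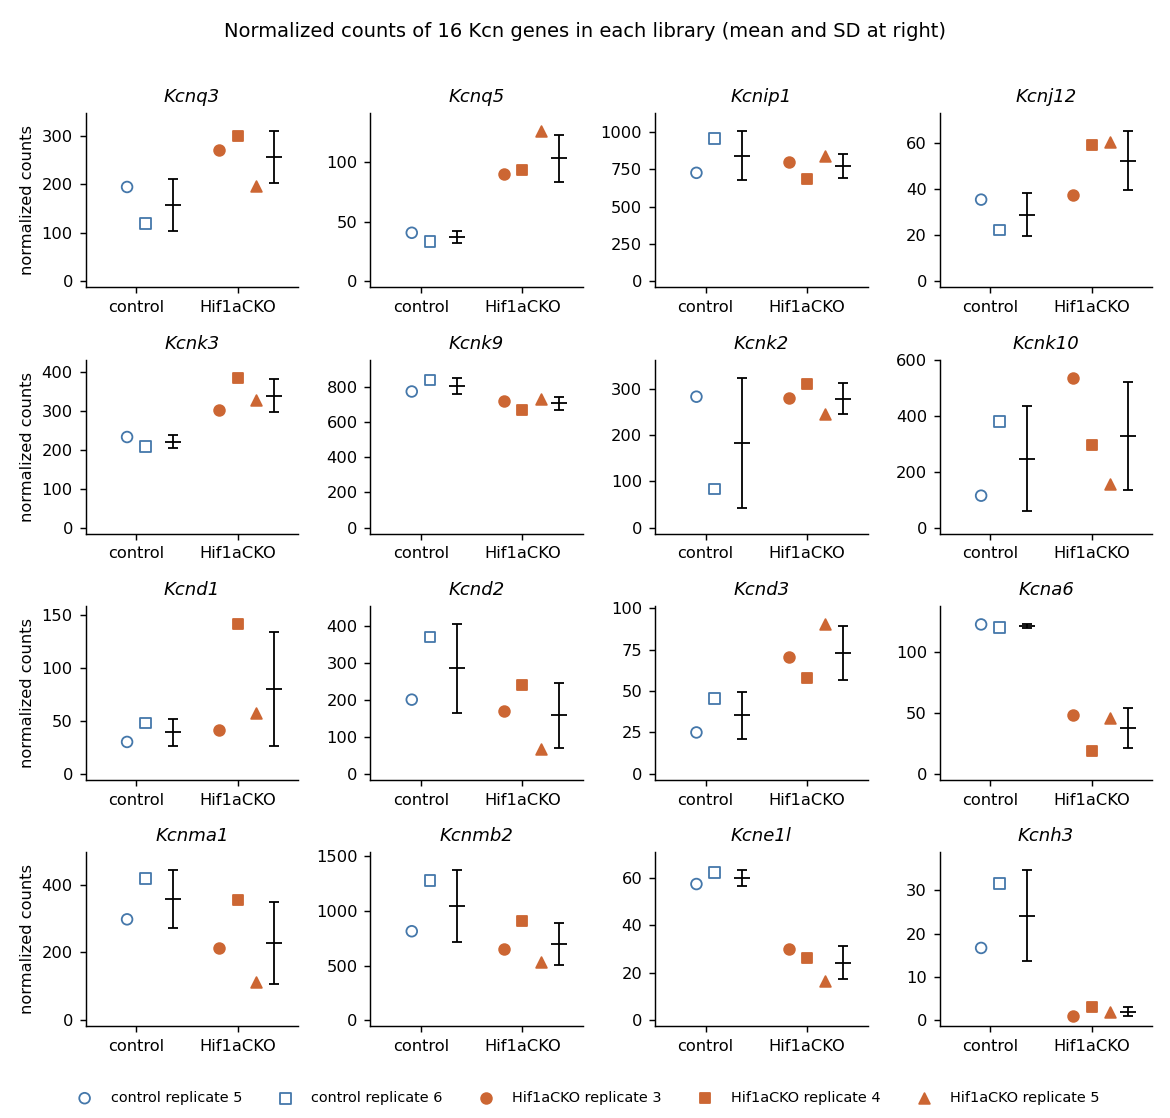
Normalized counts of 16 members in each library, with a separate axis for each gene, points for libraries, and the mean and SD of each genotype at the right of its points. *Kcnq5*, *Kcnk3*, and *Kcnd3* lie higher in all 3 *Hif1aCKO* libraries and *Kcna6*, *Kcne1l*, and *Kcnh3* lower, whereas *Kcnk2* and *Kcnk10* differ as much between the 2 controls as between the genotypes.

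Among the other voltage-gated pores, *Kcna6*, a Shaker-type delayed rectifier subunit (chromosome 6, 126708329 to 126740674, minus strand), stood at 123 and 121 normalized counts in controls and 48.2, 19.0, and 45.7 in *Hif1aCKO*. Its log2 fold change was -1.69 ± 0.50 (edgeR, unadjusted p = 0.00967, adjusted p = 0.598) and ranged from -1.91 to -1.37 over single omissions. The controls differed by about 2 counts, and every *Hif1aCKO* library lay well below them. The antisense gene *Gm26673* covers 39.6% of the exonic bases of *Kcna6*. The paper gives default Rsubread parameters for the counting and does not mention strand. How reads from the shared bases were assigned was not tested, and the count and level of *Kcna6* may be affected.

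*Kcna5*, the most abundant Shaker-type gene, had 160 and 134 normalized counts in controls and 159, 116, and 144 in *Hif1aCKO*, and its groups overlapped (log2 fold change -0.08 ± 0.31). *Kcna4*, the A-type Shaker gene, had 4.88 TPM on average and a log2 fold change of 0.21 ± 0.52. *Kcna2* had 50 summed counts, 0 in 2 *Hif1aCKO* libraries, and a sign that depended on the library left out, and *Kcna3* had 24 summed counts and was not tested. *Kcna6* was thus the only gene of the 5 in this subfamily whose groups were apart.

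*Kcnh3*, an ether-à-go-go (ELK) channel gene (chromosome 15, 99224861 to 99242817, plus strand), had 16.7 and 31.5 normalized counts in controls and 1.07, 3.00, and 1.95 in *Hif1aCKO*. This was the largest fold change of a tested member, -3.50 ± 1.05 on the log2 scale (edgeR, unadjusted p = 0.00994, adjusted p = 0.598), and it rested on 56 counts in all. The related *Kcnh8* was far more abundant at 12.9 TPM, with 107 and 215 normalized counts in controls and 182, 191, and 143 in *Hif1aCKO*, which overlapped. *Kcnh6*, an ERG-type gene, had 13.5 and 2.78 in controls and 38.6, 28.0, and 15.6 in *Hif1aCKO* (log2 fold change 1.74 ± 1.01). The value was 3.24 without control replicate 5 and 1.002 without control replicate 6. *Kcnh2*, the better known ERG gene, had 21.9 and 48.2 in controls and 15.0, 22.0, and 57.4 in *Hif1aCKO*. Its negative log2 fold change turned positive without control replicate 6 (0.52), *Hif1aCKO* replicate 3 (0.17), or *Hif1aCKO* replicate 4 (0.05). *Kcnh4* had 51.0 and 35.2 in controls and 33.2, 112, and 40.9 in *Hif1aCKO*, *Kcnh7* had 155 summed counts, and *Kcnh1* had 16. Within the 7 *Kcnh* genes of the 61, the direction therefore differed from gene to gene.

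The A-type pore genes differed from each other in direction. *Kcnd2*, the main *Kcnd* gene at 14.2 TPM, had 201 and 371 normalized counts in controls and 171, 241, and 66.2 in *Hif1aCKO* (log2 fold change -0.85 ± 0.51). Its value was -1.28 without *Hif1aCKO* replicate 4 and -0.34 without control replicate 6. *Kcnd3* had 25.0 and 45.4 in controls and 70.8, 57.9, and 90.5 in *Hif1aCKO* (1.05 ± 0.52), with 0.68 without control replicate 5 and 1.54 without control replicate 6. *Kcnd1* had 30.2 and 48.2 in controls and 41.8, 142, and 57.4 in *Hif1aCKO* (1.03 ± 0.64), where replicate 4 alone was far above the rest and the value without it was 0.34. As a share of the summed level per length of the 3 genes, *Kcnd2* took 82.4% and 83.9% in controls and 68.4%, 58.7%, and 38.8% in *Hif1aCKO*, so the groups did not overlap in that share although they did in the counts of *Kcnd2*. This share was chosen after the values of the genes were seen.

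Of the subunits that bind *Kcnd* channels, *Kcnip1* had 726 and 956 normalized counts in controls and 801, 684, and 837 in *Hif1aCKO*, a log2 fold change of -0.12 ± 0.19. *Kcnip3*, also known as the calcium-dependent repressor DREAM, reached 77.1 normalized counts in control replicate 5 and 43.8 for *Hif1aCKO* replicate 5, with 2.78, 0, and 0.999 in the other 3 libraries. *Kcnip4* had 18 summed counts. *Kcnip2* had 15, of which 13 were in *Hif1aCKO* replicate 3, the library with glial genes. *Dpp6*, a membrane partner of these channels, had 139 ± 30.8 normalized counts in controls and 155 ± 38.4 in *Hif1aCKO* (SD). *Kcnip1* was therefore the only gene of its subfamily with a steady level in all 5 libraries.

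The delayed rectifier gene *Kcnb2* had a mean level of 1.98 TPM. It had 105 and 104 normalized counts in controls and 46.1, 101, and 74.9 in *Hif1aCKO* (log2 fold change -0.50 ± 0.44), so its groups were apart by about 3 counts. Of the fast-firing *Kcnc* genes, *Kcnc4* was highest at 4.27 TPM (log2 fold change -0.11 ± 0.57), and *Kcnc1* had 0.988 TPM with a log2 fold change of -0.99 ± 0.77. That value was -1.51 without control replicate 5 and -0.19 without control replicate 6. *Kcnc2* had 11 summed counts. These genes were low beside the leak channels. The silent subunits were low as well, with *Kcnv1* at 1.01 and *Kcng4* at 0.971 TPM and *Kcns2* and *Kcnv2* at 18 and 19 summed counts.

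The leak channels of the *Kcnk* family were among the most abundant members. *Kcnk3* (chromosome 5, 30588170 to 30625271, plus strand) had 233 and 210 normalized counts in controls and 302, 386, and 330 in *Hif1aCKO*. Its log2 fold change was 0.62 ± 0.24 (edgeR, unadjusted p = 0.0325, adjusted p = 0.621), and 0.51 to 0.69 over single omissions. *Kcnk9* had 773 and 838 in controls and 720, 665, and 730 in *Hif1aCKO* (-0.19 ± 0.16), and at 8.68% its coefficient of variation over the 5 libraries was the smallest of the tested members. *Kcnk3* was thus higher and *Kcnk9* slightly lower in all 3 *Hif1aCKO* libraries, and the antisense gene *Gm9899* covers 5.76% of the exonic bases of *Kcnk3*.

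*Kcnk2* (a TREK channel) had 283 and 83.5 normalized counts in controls and 281, 312, and 245 in *Hif1aCKO*. Control replicate 6 was low and control replicate 5 was like the *Hif1aCKO* libraries. Its log2 fold change was 0.61 with both controls, 1.74 without control replicate 5, and -0.03 without control replicate 6. *Kcnk10*, the other abundant TREK gene, had 115 and 380 in controls and 538, 296, and 156 in *Hif1aCKO*, the opposite order of the controls. *Kcnk1* had 66 summed counts and *Kcnk12* had 15. The TREK genes thus differed as much within the controls as between the genotypes, unlike the TASK genes.

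Among calcium-activated channels, *Kcnma1*, the BK pore (chromosome 14, 23289431 to 24014491, minus strand), had 298 and 418 normalized counts in controls and 213, 354, and 113 in *Hif1aCKO* (log2 fold change -0.66 ± 0.43, and -1.14 to -0.33 over single omissions). Its β subunit *Kcnmb2* had 814 and 1278 in controls and 654, 912, and 533 in *Hif1aCKO* (-0.58 ± 0.27, edgeR, unadjusted p = 0.0659, and -0.23 without control replicate 6). The groups overlapped for both, and both were highest in control replicate 6 and lowest in *Hif1aCKO* replicate 5. The level per length of *Kcnmb2* was 14.8 and 16.6 times that of *Kcnma1* in controls and 16.6, 14.0, and 25.6 times in *Hif1aCKO*. A second β subunit, *Kcnmb4*, had 5.40 TPM and a log2 fold change of 0.15 ± 0.52. The antisense gene *Kcnmb4os2* covers 20.9% of the exonic bases of *Kcnmb4*.

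Of the small-conductance (SK) channel genes, *Kcnn2* was the most abundant at 9.76 TPM, with 255 and 107 normalized counts in controls and 293, 190, and 199 in *Hif1aCKO*. *Kcnn1* had 29.2 and 32.5 in controls and 33.2, 85.9, and 6.81 in *Hif1aCKO*. *Kcnn3* had 10.4 and 13.9 in controls and 22.5, 49.9, and 15.6 in *Hif1aCKO* (log2 fold change 1.26 ± 0.86, and 0.64 without *Hif1aCKO* replicate 4). The groups were apart for *Kcnn3*, by fewer than 2 counts, and overlapped for the other SK genes. *Kcnn4* had 18 summed counts, 12 of them in *Hif1aCKO* replicate 3, the library with glial genes. *Kcnu1*, a BK relative known from sperm, was counted in all 5 libraries with 80.2 and 30.6 normalized counts in controls and 103, 38.9, and 40.9 in *Hif1aCKO*. Of the sodium-activated genes, *Kcnt2* had 14.6 and 20.4 in controls and 32.2, 34.0, and 24.3 in *Hif1aCKO* (0.78 ± 0.72), and *Kcnt1* had 63 summed counts.

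Inward rectifiers were scarce. *Kcnj12*, a strong inward rectifier, accounted for most of the class at 5.44 TPM, with 35.4 and 22.3 normalized counts in controls and 37.5, 58.9, and 60.3 in *Hif1aCKO* (log2 fold change 0.86 ± 0.59). The genes of G protein-gated (GIRK) channels were near the limit, with 10 summed counts of *Kcnj3*, 36 of *Kcnj6*, and 19 of *Kcnj9*. *Kcnj14* had 19 summed counts as well. Of the *Kcnj6* counts 27 were in *Hif1aCKO* replicate 4, and of the *Kcnj9* counts 16 were in control replicate 5. *Kcnj11*, the pore of KATP channels, had 11.5 and 13.0 normalized counts in controls and 12.9, 0, and 0.973 in *Hif1aCKO*, and its regulatory partner *Abcc8* had 56.1 ± 40.0 and 23.7 ± 23.2 (SD). At this depth no difference in these genes could be resolved from the spread between libraries.

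Among the remaining accessory genes, *Kcne1l* (chromosome X, 142304752 to 142306294, minus strand), a small single-pass subunit, had 57.3 and 62.1 normalized counts in controls and 30.0, 26.0, and 16.5 in *Hif1aCKO*. Its log2 fold change was -1.30 ± 0.58 (edgeR, unadjusted p = 0.0549, adjusted p = 0.660), and -1.49 to -1.09 over single omissions. The highest *Hif1aCKO* library was near the middle between 0 and the controls. *Kcnab2*, a cytoplasmic β subunit of Shaker-type channels, had 110 in each control and 54.7, 11.0, and 89.5 in *Hif1aCKO* (-1.09 ± 0.71), so its groups were apart although the *Hif1aCKO* libraries were far from each other. *Kcnab1* and *Kcnab3* had 123 and 89 summed counts, and *Kcnrg*, a regulator of channel assembly, had 84.

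Of 25 listed partner genes of the channels, 21 were in the table and 20 were tested, 10 higher and 10 lower in *Hif1aCKO*. None was called, and 2 had an unadjusted p under 0.05, both lower, where 3.85% of all genes were lower at that p. *Lgi1*, a secreted ligand tied to *Kcna* channel complexes, had 132 ± 62.7 normalized counts in controls and 33.2 ± 33.6 in *Hif1aCKO* (log2 fold change -1.99 ± 0.78). Its receptor *Adam22* had 782 ± 216 and 425 ± 172 (-0.88 ± 0.33). The calmodulin genes *Calm2* and *Calm3*, whose product gates SK and *Kcnq* channels, had log2 fold changes of 0.01 and 0.02. *Ank3*, the scaffold that holds *Kcnq3* at the axon initial segment, had 1730 ± 225 and 1891 ± 534 (SD).

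The members varied more between libraries than most genes. The median coefficient of variation over the 5 libraries was 52.8% for the 47 tested members and 26.5% for all genes tested, but the members also had fewer counts, with a median of 51.4 normalized counts beside 187. Between 24.9 and 155 normalized counts, the middle range of the members, the 23 members had a median of 52.5% and the 4161 genes of the table in that range 38.2%. For 13 members with 100 or more normalized counts the median was 32.9%, beside 18.9% for all genes of that level. *Kcnmb2*, the member with the most counts, varied by 34.1%, whereas *Kcnip1* and *Kcnk9*, the next by counts, varied by 13.2% and 8.68%. *Kcnk10* (58.0%), *Kcnd2* (52.8%), *Kcnma1* (42.9%), and *Kcnk2* (37.8%) varied most among members above 200 normalized counts. Genes are not independent replicates, so this is a description of these 5 libraries of 100 cells each.

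**Figure D5:**
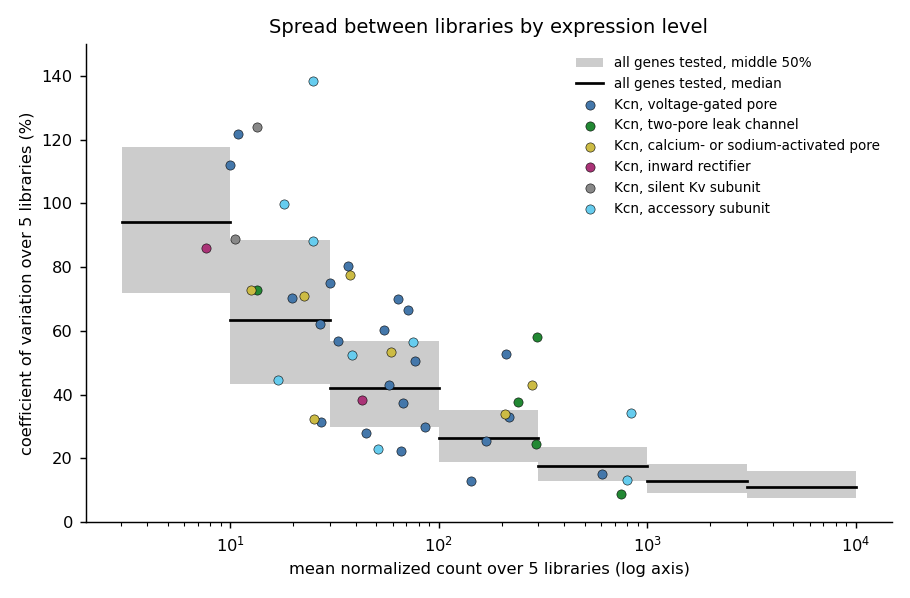
Coefficient of variation over the 5 libraries against the mean normalized count (log axis) for the 47 tested members, coloured by class, over the median (line) and middle 50% (grey) of all genes tested in bins of expression. Most members of 100 to 300 normalized counts lie above the line of 26.3%, with a median of 34.0%, whereas *Kcnk9* and *Kcnip1* lie below the line of 17.6% for their level and *Kcnmb2* above it at 34.1%.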

How the data were processed

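The authors trimmed reads with cutadapt (version 1.18) and Trimmomatic, removed ribosomal reads with Bowtie (version 1.2.2) and SortMeRNA, mapped reads to GRCm38 with STAR (version 2.7.0c), then made gene counts in Rsubread, leaving out multi-mapping reads. The deposited values are these raw counts for 5 libraries, used as deposited. Groups follow the genotype in the labels. Counts were tested with edgeR (version 4.0.16, R 4.3.3), its quasi-likelihood test after filterByExpr and TMM scaling, adjusted by Benjamini-Hochberg over 15032 genes. Levels per length used GENCODE M21 exons. Promoters came from RefSeq. DESeq2 (version 1.42.0) and other settings served as alternatives. The p-values measure the spread between libraries of 100 cells. The test was first run on simulated counts. Python (version 3.11.15), pandas (version 2.3.3), and matplotlib (version 3.10.9) were used.

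The members and lists were chosen with earlier results of these data known. Named genes are the most abundant of each subfamily, the 12 with the smallest p, genes with a known role in excitability, those around the count limit, and marker and partner genes. Some genes that these rules cover are not reported here, though counts and shares over all members include them. Other members are named to complete a family and were chosen after their values were seen.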

Additional observations from a re-analysis of the deposited data

How the results depend on the processing

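No member was called under RLE normalization, DESeq2, an unfiltered table, a minimum of 10 counts per library, an adjusted p under 0.1, or with any library left out. Of 183 pairs of a named gene and a setting, 175 kept their direction and 8 had the other sign. No named gene was called in any setting, so the side of the threshold never differed. Some settings used the same 5 libraries, so the pairs are not independent. The sign turned in 5 of 21 named genes when a library was left out, with log2 fold changes from -0.027 to 1.74 for *Kcnk2*, -0.17 to 1.09 for *Kcnn2*, -0.625 to 0.95 for *Kcnn1*, -0.92 to 0.52 for *Kcnh2*, and -0.48 to 0.25 for *Kcna2*. Leaving out a library moved the number of members with an unadjusted p under 0.05 from 0 to 4 (higher) and 1 to 5 (lower), the number with all *Hif1aCKO* libraries above the controls from 9 to 18 and below from 8 to 16 (18.7% to 25.2% and 18.7% to 25.5% of all genes), and the median log2 fold change from -0.10 to 0.25 (the latter without *Hif1aCKO* replicate 5). Where 1 control was left, it was assumed to vary like the other group. With a library left out, the share of all genes at an unadjusted p under 0.05 was not computed. The counts of members at that p were thus not set against a background, and an excess over all genes was not tested. Without division by length, the class shares were 29.7% (accessory), 33.6% (voltage-gated), 25.1% (two-pore), 10.1% (calcium- or sodium-activated), 1.06% (inward rectifier), and 0.490% (silent). With *Kcnmb2* left out, chosen after seeing the data, the two-pore share was 26.5%. The cause of these changes was not tested. No paired analysis was possible because the groups share only replicate number 5. Depth limits the 14 members not tested.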
